A study of Mus musculus with 14 samples.

Results

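Pax3, Pax7, Myf5, Myod1, Myog and Myf6, the paired-box and myogenic regulatory transcription factors of skeletal muscle, were followed in freshly sorted mouse satellite cells. All 7 non-control probes named for these 6 genes were taken, each on its own, out of 55681 non-control probes on the array. Pax3 had 2 probes and every other gene 1. All 7 passed the filter on dim probes, as did 49918 probes in all. Each was well above background on 14 of 14 arrays and none was saturated.

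Satellite cells are the stem cells of skeletal muscle, and they lie between the fibre membrane and its basal lamina. Pax7 marks them at rest and Pax3 is its close relative. Myf5 and Myod1 are basic helix-loop-helix activators that commit a cell to the muscle lineage, Myog drives the differentiation of committed myoblasts, and Myf6 (also called MRF4) is abundant in fibres. The 4 helix-loop-helix factors bind the E-box as dimers with E proteins such as Tcf3, and Id proteins take those partners away.

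The cells came from resting muscle and had been sorted by flow cytometry for integrin alpha7 and CD34, with cells bearing CD31, CD45, CD11b or Sca1 gated out. RNA from these few cells was amplified as whole-transcriptome cDNA, labelled with Cy3 and hybridised to 1-colour Agilent arrays. The arrays held Young C57BL/6 mice of 2 to 3 months (n = 3), Old C57BL/6 mice of 22 to 24 months (n = 3), Geriatric C57BL/6 mice of 29 and 30 months (n = 2), SAMP8 mice of 12 months, a senescence-prone strain (n = 3), and SAMR1 mice of 12 months, the senescence-resistant strain used as its control (n = 3). All mice were untreated as far as the labels say and were labelled male. The labels call the samples biological replicates and do not say whether each came from 1 mouse.

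Values are log2 signals relative to the 75th percentile of the same array, so 0 is a bright probe, and a difference of 1 is a doubling. A probe was called where its limma p, adjusted over all 49918 probes, was under 0.05. Samples of one group correlated at r = 0.936 to 0.970 over all probes and samples of different groups at 0.833 to 0.955. The 14 markers of satellite cells listed for the check were well above background on every array, Pax7 among them. That flag alone does not identify the cells, since 77.2% to 88.7% of the spots of an array passed it. On every array it was also passed by the 5 measured mesenchymal genes and by at least 6 of 7 leukocyte genes. The leukocyte gene Itgam lay at 7.42 to 8.70 on the brightest of its 3 kept probes, the only one read. In the same list Csf1r lay at 2.48 to 3.16 and Ptprc at −2.34 to −1.49. Sex-linked transcripts went against the label on the Young and Old arrays. Xist, the RNA of the inactive X chromosome, lay at 5.08 to 5.86 there and was not well above background on either Geriatric array. The Y-linked Ddx3y was not well above background on those 6 Young and Old arrays and lay at 0.08 and 0.28 on the Geriatric arrays. Every comparison of Geriatric with Young or Old cells therefore also sets arrays with Y-linked transcripts against arrays without them, and these cannot be told apart.

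The probes are 60-mers at the 3' side of the transcripts, placed by the deposited files on mm9. The last 30 bases of 3 of them are shown, because they include the probe with the called difference and both probes of the gene measured by a pair. Capitals mark AATAAA, the letters of the polyadenylation signal, which 10.1% of the 55681 probes held somewhere in their 60 bases.
Myf5 (A_51_P188281): aaatgtactattattatcAATAAAatattt
Pax3 (A_51_P315734): gtattaaatatgacattgtcagcctgtagc
Pax3 (A_55_P2033705): gaatcttctcagaaacaaaacAATAAAaaa
The Myf5 probe covers chr10:106919974-106920033 on the minus strand (mm9), begins at base 2013 of its transcript, and holds AATAAA 2 times. Only 15% of its bases are G or C, against a median of 43.3% over all probes and a 5th percentile of 35%. The Pax3 probes cover chr1:78099476-78099535 and chr1:78099294-78099353 (mm9, minus strand), with starts 182 bases apart, and the second holds AATAAA near its end. The Myf6 probe at chr10:106930237-106930296 (mm9, minus strand) starts 10.3 kb from the Myf5 probe, since the 2 genes are neighbours on chromosome 10. The Pax7 probe covers chr4:139294364-139294423 (minus strand), the Myod1 probe chr7:53633956-53634015 (plus strand) and the Myog probe chr1:136188874-136188933 (plus strand), all on mm9. The arrays carry the Myf5, Myod1, Myog and A_51_P315734 Pax3 probes at 10 spots each and the others at 1.

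Promoters were in the RefSeq table (GRCm38.p6) for 3 of the 6 genes, Myf5, Myog and Pax7. Those of Myf5, which carried the called difference, and Myog, the textbook target of the other factors, are shown from 250 bases before to 50 bases after the gene's start. Capitals mark CANNTG (the E-box), TATAAA and CTANNNNTA, the last being letters of MEF2 sites that were chosen with the Myog sequence in view. Each motif was searched on both strands, and overlapping matches are joined.
Myf5 promoter, chr10:107486085-107486384, minus strand: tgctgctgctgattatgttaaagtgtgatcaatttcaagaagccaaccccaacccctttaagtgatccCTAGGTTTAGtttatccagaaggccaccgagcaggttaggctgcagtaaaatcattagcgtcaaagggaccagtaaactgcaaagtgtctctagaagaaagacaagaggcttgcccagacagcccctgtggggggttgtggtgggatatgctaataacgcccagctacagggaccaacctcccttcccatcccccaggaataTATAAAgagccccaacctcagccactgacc
Myog promoter, chr1:134289754-134290053, plus strand: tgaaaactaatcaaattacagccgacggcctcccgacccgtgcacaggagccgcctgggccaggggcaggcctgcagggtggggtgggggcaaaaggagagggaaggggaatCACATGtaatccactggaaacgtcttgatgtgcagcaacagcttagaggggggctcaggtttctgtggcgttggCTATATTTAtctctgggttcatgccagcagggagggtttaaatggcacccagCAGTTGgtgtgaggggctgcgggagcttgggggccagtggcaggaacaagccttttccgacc
The Myog promoter held 2 E-boxes, CACATG and CAGTTG, whose first bases lie 138 and 12 bases before the start, and 1 CTANNNNTA. The Myf5 window held no E-box, 2 overlapping matches of CTANNNNTA and 1 TATAAA, whose first base lies 20 bases after the start. The Pax7 window held no match of any of these motifs. Of 32851 promoters in the table, 72.3% held an E-box, 21% CTANNNNTA and 13.6% TATAAA. The narrower E-box CAGCTG (16.3% of promoters) was in none of the 3 windows.

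Pax7, which marks the resting satellite cell, was measured at 200 to 579 times its local background. In age order, its level was 3.91, 4.58 and 4.20 on the Young arrays, 3.70, 3.39 and 3.54 on the Old arrays, and 4.11 and 4.11 on the Geriatric arrays. The Old arrays lay below all Young and all Geriatric arrays, and the Geriatric pair lay inside the Young range. The Old minus Young difference was −0.69 ± 0.21 (SE; adjusted p = 0.144), and the Geriatric minus Old difference was 0.57 ± 0.24 (adjusted p = 0.119), so neither passed the test. The Geriatric minus Old value passed in 2 of 23 other settings, normexp background correction (0.71, adjusted p = 0.0232) and the authors' deposited log2 values (0.82, adjusted p = 0.021). Geriatric minus Young was −0.12, with a 95% interval from −0.64 to 0.40 (adjusted p = 0.805). In the 12-month strains Pax7 lay at 3.91, 3.40 and 3.75 in SAMP8 and at 3.67, 3.60 and 3.58 in SAMR1 cells, a difference of 0.07 with an interval from −0.40 to 0.53 (adjusted p = 0.981). In bulk RNA, fewer cells of a type and less RNA per cell cannot be told apart.

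Pax3 was measured above background in every group, and neither probe passed the test in any of the 4 comparisons. Probe A_55_P2033705 had −0.17, −0.16 and −0.81 in Young, −0.57, −0.15 and −0.50 in Old, and −0.74 and −0.72 in Geriatric cells. It had −0.63, −0.66 and −1.03 in SAMP8 and −0.56, −0.49 and −0.66 in SAMR1 cells. These 14 values span 0.89 log2 units, and only the Geriatric arrays stood apart from a group they were compared with, lying below the 3 Old arrays (−0.32 ± 0.25, adjusted p = 0.38). Probe A_51_P315734 spread more widely, over 2.47 log2 units. It had −2.93, −2.29 and −3.64 in Young, −2.64, −2.46 and −2.84 in Old, and −2.24 and −3.39 in Geriatric cells. It had −4.42, −4.52 and −2.94 in SAMP8 and −2.98, −2.06 and −3.60 in SAMR1 cells. The groups overlapped in all 4 comparisons, and the difference farthest from 0 was SAMP8 minus SAMR1, −1.08 ± 0.53 (95% interval from −2.24 to 0.08, adjusted p = 0.629). After each profile was centred on its own mean, the 2 probes of this 1 gene differed by a root mean square of 0.68 over the arrays.

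Myf5 was the only one of the 7 probes that passed the test in any of the 4 comparisons. Its level was −3.26, −3.03 and −3.02 in Young, −5.17, −3.92 and −3.37 in Old, and −2.02 and −1.60 in Geriatric cells. The Old arrays were the lowest of the 5 groups and the Geriatric arrays the highest of the age series, with no overlap between any of the 3 ages. Myf5 rose 5.07-fold in Geriatric over Old cells (2.34 ± 0.43 log2, adjusted p = 0.00496), while the median difference of all probes was −0.18. The difference was 1.29 ± 0.43 for Geriatric minus Young (adjusted p = 0.132) and −1.05 ± 0.39 for Old minus Young (adjusted p = 0.208). SAMP8 cells had −2.48, −2.37 and −1.99 and SAMR1 cells −1.98, −2.53 and −1.85, which overlapped (−0.16 ± 0.39, adjusted p = 0.975). The size of the Geriatric minus Old difference depended on the processing, at 1.25 with normexp background correction and 3.12 with quantile normalization, and it passed under both (adjusted p = 0.00212 and 0.00876). It did not pass without Geriatric replicate 3 (2.13, adjusted p = 0.057), with only the groups compared (adjusted p = 0.0714) or within slide 2, the only slide with Geriatric arrays (2.46, adjusted p = 0.112). Beside it, the summed level of 7 leukocyte genes was 177 and 185 in Geriatric and 246 to 397 in Old cells. That sum follows mostly Itgam, the brightest of the 7, and 1 of the 7 was higher in Geriatric cells (median −0.66). The summed level of 6 smooth muscle and pericyte genes was 4.05 and 8.92 in Geriatric and 9.72 to 17.7 in Old cells. Gene by gene, however, 4 of these 6 were higher in Geriatric cells (median 0.16), and Cspg4 had no value on Geriatric replicate 1. The part of these genes in the Myf5 levels was not tested.

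Myf6, the neighbour of Myf5, lay at −2.97, −2.38 and −3.08 in Young, −3.66, −2.59 and −2.61 in Old, and −1.66 and −1.58 in Geriatric cells. Both Geriatric arrays were above all 6 Young and Old arrays. The Geriatric minus Old difference was 1.33 ± 0.44 (adjusted p = 0.0564) and the Geriatric minus Young difference 1.19 ± 0.44 (adjusted p = 0.163). SAMP8 cells had −1.29, −0.81 and −2.34 and SAMR1 cells −1.89, −1.78 and −1.88, so that the SAMP8 arrays lay on both sides of SAMR1 (0.37 ± 0.39, adjusted p = 0.912). The Geriatric minus Old value passed in 6 of 23 other settings, among them quantile normalization (1.80, adjusted p = 0.0337) and the authors' deposited log2 values (1.13, adjusted p = 0.0368).

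**Figure D1:**
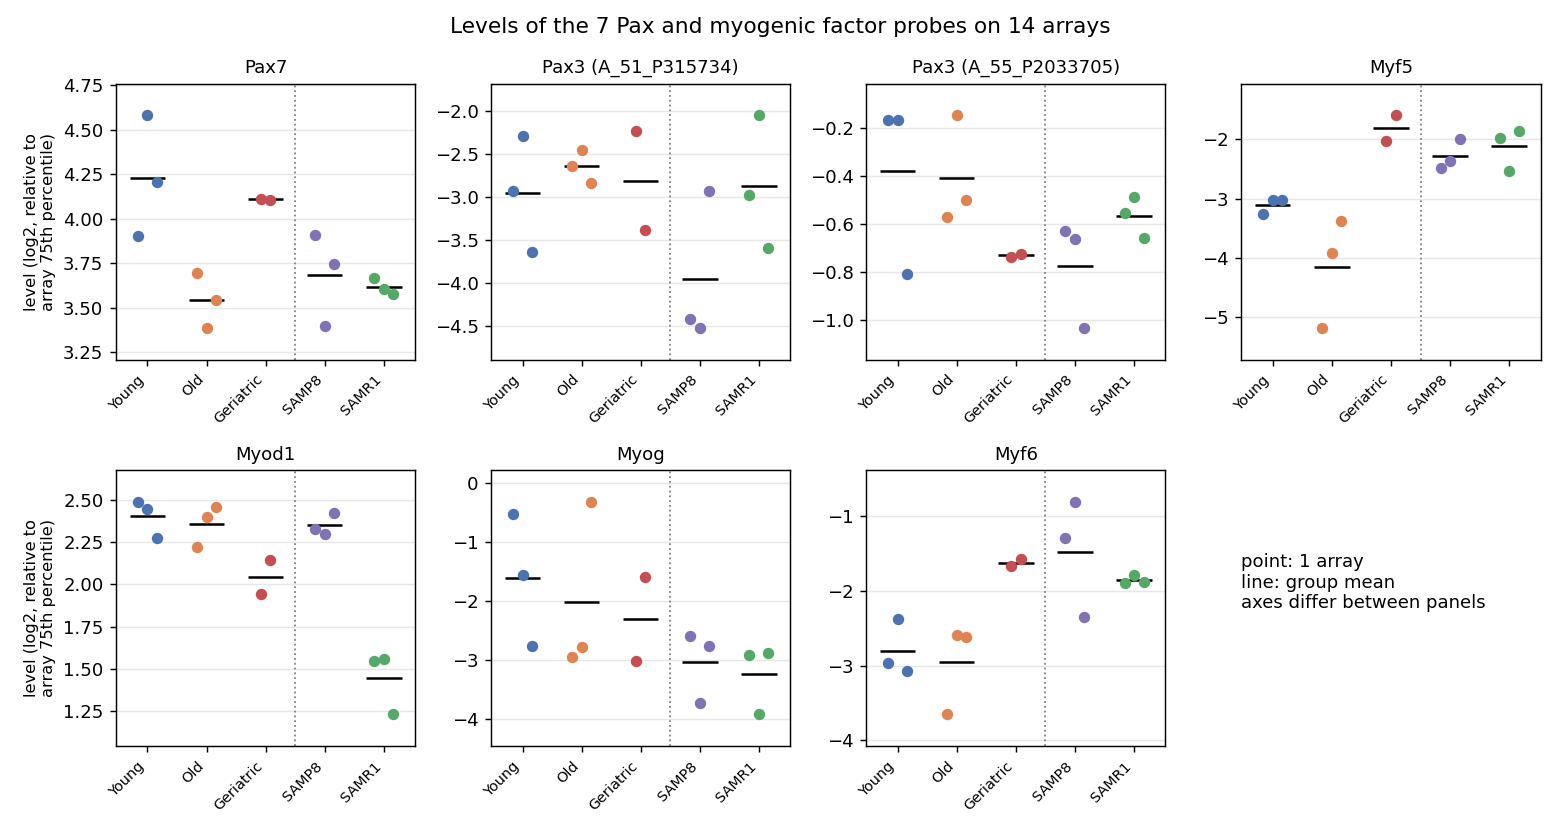
Level of each probe (log2 relative to the array's 75th percentile) on the Young, Old, Geriatric, SAMP8 and SAMR1 arrays, with 1 point per array, a line at the group mean and a separate axis range per panel. The Geriatric points for Myf5 (−2.02 and −1.60) lie above those of Old and Young, and the SAMR1 points for Myod1 (1.23 to 1.56) lie below every other array.

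Myf5 and Myf6 divided the arrays in the same way. Myf5 lay between −2.53 and −1.60 on the 8 Geriatric, SAMP8 and SAMR1 arrays and between −5.17 and −3.02 on the 6 Young and Old arrays. Myf6 lay between −2.34 and −0.81 on the 8 arrays and between −3.66 and −2.38 on the 6, a gap of 0.03. The other 5 probes overlapped across this division. Over all probes, 2.74% were higher on all 8 arrays than on any of the 6, and 6.06% were lower on all 8. Ddx3y, Uty and Kdm5d were well above background on those 8 arrays and on none of the 6, and their part in the Myf5 and Myf6 levels was not tested. After centring, the Myf5 and Myf6 profiles differed by a root mean square of 0.61 over the 14 arrays, the smallest value of Myf5 with any other of the 7 probes.

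**Figure D2:**
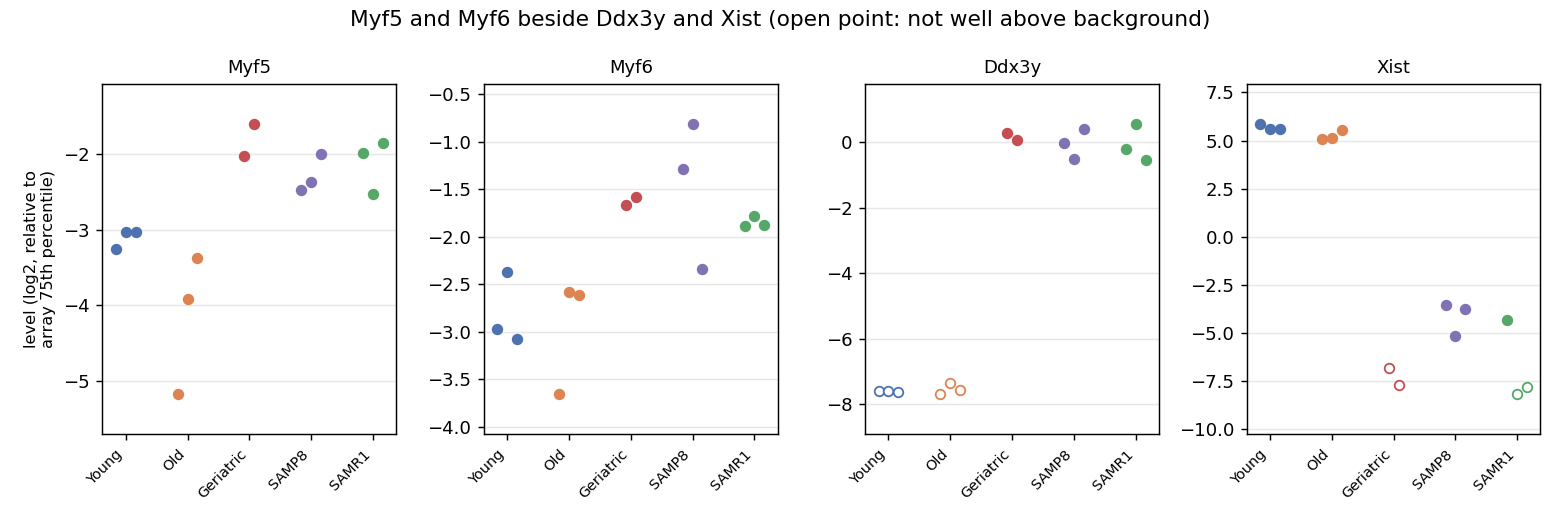
Levels (log2 relative to the array's 75th percentile) of Myf5 and Myf6 beside the Y-linked Ddx3y and the X-linked Xist in the 5 groups, with 1 point per array and open points for arrays not well above background. Myf5 and Myf6 were higher on the 8 arrays where Ddx3y was well above background than on the 6 where it was not.

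Myod1 lay lower on the SAMR1 arrays than on any other array. Its level was 2.48, 2.44 and 2.27 in Young, 2.22, 2.40 and 2.45 in Old, and 1.94 and 2.14 in Geriatric cells. Young and Old overlapped, with a difference of −0.04 and a 95% interval from −0.42 to 0.34, and the Geriatric arrays lay just below both. Geriatric minus Young was −0.36 ± 0.19 (adjusted p = 0.318) and Geriatric minus Old −0.31 ± 0.19 (adjusted p = 0.271). SAMP8 cells had 2.33, 2.29 and 2.42 and SAMR1 cells 1.55, 1.56 and 1.23. The 3 SAMR1 arrays were the lowest of all 14, and the SAMP8 arrays lay within the range of the Young and Old arrays. SAMP8 minus SAMR1 was 0.90 ± 0.17, a 1.87-fold difference that fell short of the threshold (adjusted p = 0.0559), although only 0.445% of all probes had a smaller p. Over 24 other settings the value lay between 0.80 and 0.96. It passed with normexp background correction (adjusted p = 0.0184), quantile normalization (adjusted p = 0.0398), the authors' deposited log2 values (adjusted p = 0.00891) and a filter for probes above background on all arrays (adjusted p = 0.0358). It was 0.90 within slide 1, where SAMP8 replicate 2 was the only SAMP8 array. Within slide 2, where SAMR1 replicate 2 was the only SAMR1 array, it was 0.82.

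The Geriatric minus Young difference of Myod1 was lower than its SAMP8 minus SAMR1 difference by −1.26 ± 0.26 (interaction contrast, adjusted p = 0.0364), and 1.57% of all probes passed that contrast. It was the only one of the 7 probes to do so. The call was lost in 15 of 23 other settings, including the removal of any single Young, Geriatric, SAMP8 or SAMR1 array or of Old replicate 2, and the value stayed between −1.36 and −1.11. Endothelial transcripts were also higher on most arrays of the 12-month strains. The summed level of 6 endothelial genes, in multiples of the 75th percentile, was 16.8 and 17.3 in Geriatric and 10.4 to 17 in Young cells, and 16.2 to 53.1 in SAMP8 and 33 to 65.7 in SAMR1 cells. Pecam1, which encodes the CD31 of the negative gate, lay at −3.52 and 0.11 in Geriatric and −4.95 to −0.85 in Young cells, and at 0.61 to 3.77 in SAMP8 and 2.39 to 3.80 in SAMR1 cells. The 5 Schwann cell genes were each lower in SAMP8 than in SAMR1 cells on average (0 of 5 passed, median −1.52), with summed levels of 0.967 to 5.97 in SAMP8 and 6.57 to 12.8 in SAMR1 cells, and of 0.699 and 1.32 in Geriatric and 0.84 to 3.64 in Young cells. Summed levels, which follow the brightest genes most, did not overlap either for 5 mesenchymal genes, at 89.6 to 103 in SAMP8 and 56 to 76.5 in SAMR1 cells. Of these 5, 4 were higher in SAMP8 cells (median 0.25). For 6 smooth muscle and pericyte genes the sums were 8.16 to 10 in SAMP8 and 12.2 to 14.5 in SAMR1 cells. Gene by gene these went both ways, with 3 of 6 higher in SAMP8 cells (median −0.0044). The part of the endothelial, Schwann cell, mesenchymal and smooth muscle and pericyte genes in the Myod1 levels was not tested.

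Myog varied more between arrays of a group than any other of the 7 probes. Its level was −0.52, −1.55 and −2.76 in Young, −2.94, −2.78 and −0.32 in Old, and −3.02 and −1.59 in Geriatric cells. It was −2.59, −3.74 and −2.76 in SAMP8 and −2.91, −3.92 and −2.87 in SAMR1 cells. All groups overlapped in all 4 comparisons. The differences lay between −0.69 (Geriatric minus Young, 95% interval from −2.54 to 1.15) and 0.21 (SAMP8 minus SAMR1, interval from −1.45 to 1.86), with adjusted p between 0.671 and 0.984. A difference of 1 log2 unit in either direction lay within each of the 4 intervals.

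The spread between arrays was larger than the spread between spots of an array for the 4 probes with 10 spots. The pooled SD between arrays of a group was 1.02 for Myog, 0.70 for Pax3 probe A_51_P315734, 0.50 for Myf5 and 0.13 for Myod1. The mean SD between spots on an array was 0.11 for Myog, 0.14 for this Pax3 probe, 0.14 for Myf5 and 0.07 for Myod1. For Myf5 the dimmest array, Old replicate 1, also had the widest spots, with a spot SD of 0.47 and a mean signal of 1.91 times the local background. Without it the Geriatric minus Old difference was 1.83 (adjusted p = 0.00671), and the Geriatric minus Young difference, unchanged at 1.29 but with an SE of 0.29, passed (adjusted p = 0.0362). Myod1 was 78.5 to 164 times above its local background.

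**Figure D3:**
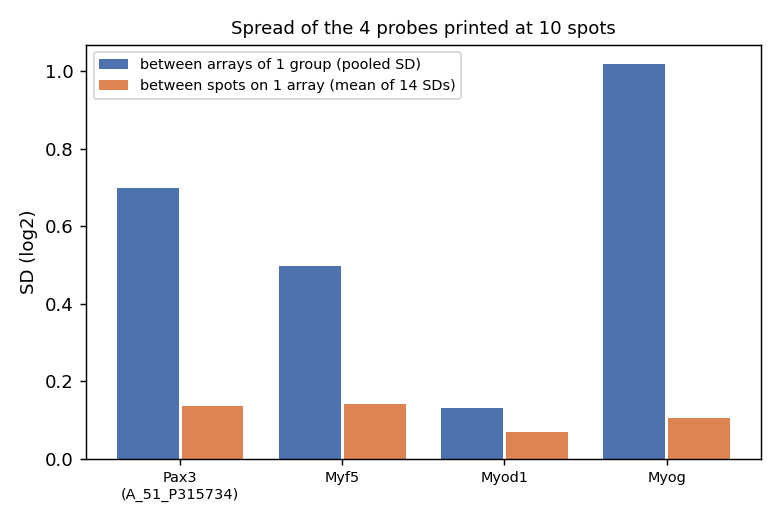
SD on the log2 scale of the 4 probes printed at 10 spots, between arrays of 1 group (pooled over the 5 groups, left bar) and between spots of 1 array (mean over 14 arrays, right bar). The Myog bars are 1.02 and 0.11, and the Myod1 bars 0.13 and 0.07.

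The counts over the 7 probes stand beside those of the whole array. In Old against Young cells 0 of 7 were called, where 1.24% of all probes were, and 2 of 7 (Pax7 and Myf5) did not overlap between the groups, against 21.4% of all probes. Unadjusted, 2 of 7 had p under 0.05, against 16.5% of all. In Geriatric against Young cells 0 of 7 were called (3.54% of all probes), 3 did not overlap (Myf5, Myf6 and Myod1; 42.9% of all) and 2 had an unadjusted p under 0.05 (20.4% of all). In Geriatric against Old cells 1 of 7 was called, where 18% of all probes were called and 5.32% were called higher. Of the 7, 5 did not overlap (53.2% of all) and 3 had an unadjusted p under 0.05 (34.2% of all). In SAMP8 against SAMR1 cells 0 of 7 were called (0.421% of all), and 1, Myod1, did not overlap (13.1% of all) and had an unadjusted p under 0.05 (8.45% of all). The comparisons of the age series share their arrays, so the values of one probe in them are not independent.

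**Figure D4:**
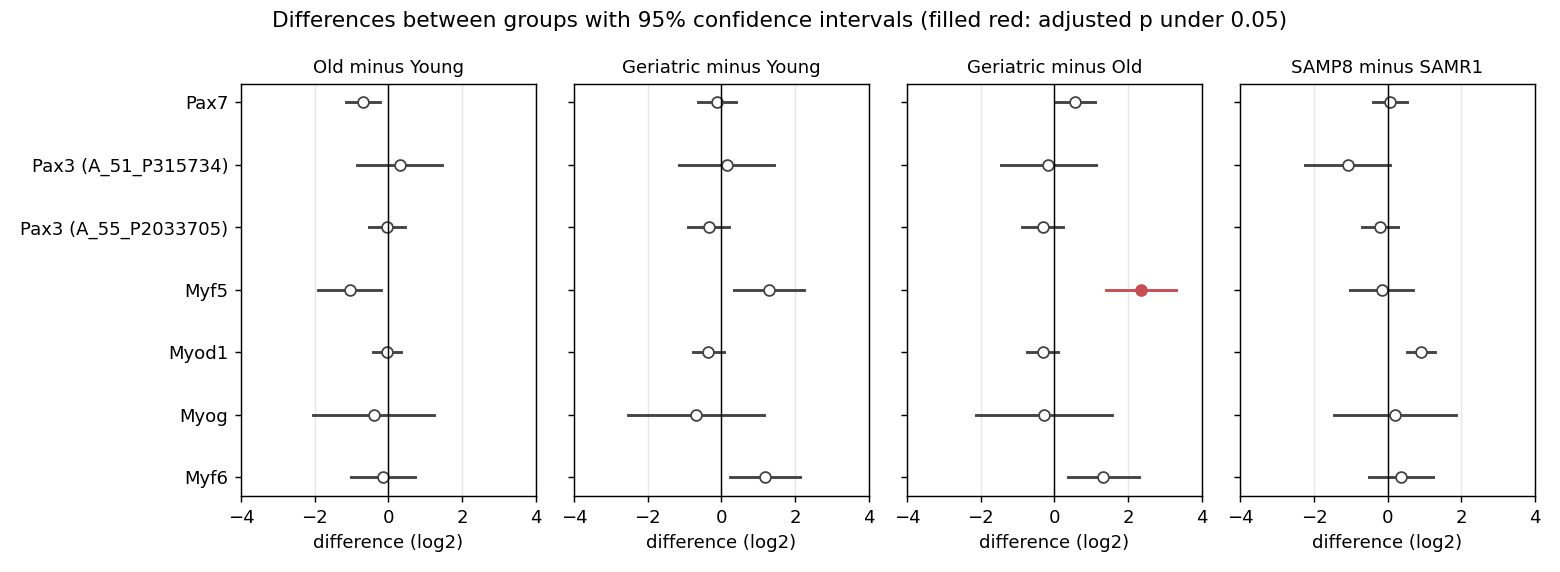
Difference in level (log2) for each of the 7 probes in the 4 comparisons, with the 95% confidence interval from the fit over 14 arrays. The filled red point is Myf5 in Geriatric minus Old cells (2.34), and all others are open.

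Genes for proteins that bind or inhibit these factors were higher in Geriatric cells where they passed. Of 16 such genes, 3 rose and 0 fell in Geriatric over Young cells, where 1.35% of all probes were called higher and 2.19% lower. In Geriatric over Old cells 4 rose and 0 fell, where 5.32% of all probes were called higher and 12.7% lower, and 0 passed in Old over Young or in SAMP8 over SAMR1 cells. Their median difference was 0.38 in Geriatric over Young and 0.93 in Geriatric over Old, where the medians of all probes were −0.13 and −0.18. Mdfi (I-mfa), which holds myogenic factors out of the nucleus, rose in Geriatric over Young (1.50 ± 0.29, adjusted p = 0.016) and over Old cells (1.26 ± 0.29, adjusted p = 0.0132). Its level was −0.71 and −1.03 in Geriatric cells, against −1.79 to −2.43 in Old and −2.11 to −2.61 in Young cells, and −1.94 to −2.51 in SAMP8 and −1.99 to −2.54 in SAMR1 cells. The Geriatric arrays were thus the highest of all 14. Id1, which sequesters E proteins, rose over Young (0.92 ± 0.21, adjusted p = 0.0399) and over Old cells (0.98 ± 0.21, adjusted p = 0.0107), and lay at −0.66 to −0.22 on the 8 Geriatric, SAMP8 and SAMR1 arrays and at −1.53 to −1.16 on the 6 Young and Old arrays. Mdfic, a relative of Mdfi, rose over Young (1.29 ± 0.30, adjusted p = 0.0375) and Old cells (1.38 ± 0.30, adjusted p = 0.0102). In Geriatric minus Young, the Id1 call passed in 9 of 23 other settings, not with quantile normalization (adjusted p = 0.0524), and the Mdfic call passed in 10 of 23, not where slide was a block (adjusted p = 0.0807). Snai2, a zinc finger repressor that competes for E-boxes, rose over Old cells (1.07 ± 0.30, adjusted p = 0.0336). The E protein Tcf3 had −0.64 in Old minus Young cells (adjusted p = 0.184).

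Among 21 upstream factors and coactivators, of which 20 were measured, 1 rose in Geriatric over Young cells, where 1.35% of all probes were called higher. In Geriatric over Old cells 2 rose and 1 fell, where 5.32% of all probes were called higher and 12.7% lower. Eya2, a transcriptional coactivator upstream of the myogenic factors, rose in Geriatric over Young cells (2.23 ± 0.38, adjusted p = 0.00899). Its level was −0.12, −0.0037 and −0.77 in Young, 1.43, 1.29 and 0.36 in Old, and 2.12 and 1.74 in Geriatric cells, with no overlap between the 3 ages, and Old minus Young was 1.33 ± 0.34 (adjusted p = 0.0893). Its Geriatric minus Young difference exceeded its SAMP8 minus SAMR1 difference by 2.51 ± 0.51 (adjusted p = 0.035), a call that passed in 13 of 23 other settings and not where slide was a block (adjusted p = 0.0519). In Geriatric over Old cells the homeobox gene Meox2 (1.63 ± 0.39, adjusted p = 0.0172) rose, as did Eya4, a relative of Eya2 (1.41 ± 0.33, adjusted p = 0.0156), while Barx2, a homeobox gene of muscle precursors, fell by 1.19 ± 0.30 (adjusted p = 0.0215). Barx2 did not pass with quantile normalization (−0.59, adjusted p = 0.094) or the authors' deposited log2 values (−0.34, adjusted p = 0.152). In SAMP8 over SAMR1 cells 0 of 20 passed, where 0.421% of all probes did. The smallest p was that of Meox1, which was not well above background in SAMP8 cells and was at least 1.80-fold lower there (adjusted p = 0.0957).

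Of 23 differentiation genes that the myogenic factors are known to switch on, 22 were measured. In Geriatric over Old cells 0 rose and 2 fell, where 12.7% of all probes were called lower, and in the other 3 comparisons 0 passed. Mylpf, a fast regulatory myosin light chain, lay at −5.06, −4.80 and −4.02 in Old cells and was not well above background on either Geriatric array. In the values used here it was at least 2.95-fold lower in Geriatric cells (−3.48 log2, adjusted p = 0.0219). The size depended on the processing, at −1.10 with normexp background correction (adjusted p = 0.00529). It did not pass with quantile normalization (−2.33, adjusted p = 0.116) or the authors' deposited log2 values (−0.57, adjusted p = 0.126). Tnnc1, the slow troponin C, fell by 0.90 ± 0.26 (adjusted p = 0.0367), a call that passed in 14 of 23 other settings and not with the replicate block (adjusted p = 0.0828). The median of the 22 was −0.56 in Geriatric over Old cells and −0.38 in Geriatric over Young cells, beside −0.18 and −0.13 for all probes. The embryonic myosin Myh3 was not well above background on either Geriatric array, and was at least 4.55-fold lower than in Young cells by that bound, without passing (adjusted p = 0.209). Des, the muscle intermediate filament, had −0.66 ± 0.21 in Geriatric minus Young cells (adjusted p = 0.107). The summed level of 10 muscle fibre genes was 4.32 to 4.97 in Geriatric cells, against 5.45 to 10.6 in Old and 5.48 to 7.42 in Young cells. Acta1, the brightest of the 10 on these arrays, and Ckm are also among the differentiation genes, so the lists share values. Of the 10, 2 were higher in Geriatric than in Old cells (median −0.55) and 4 than in Young cells (median −0.19). The part of the fibre genes in the differentiation genes was not tested.

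**Figure D5:**
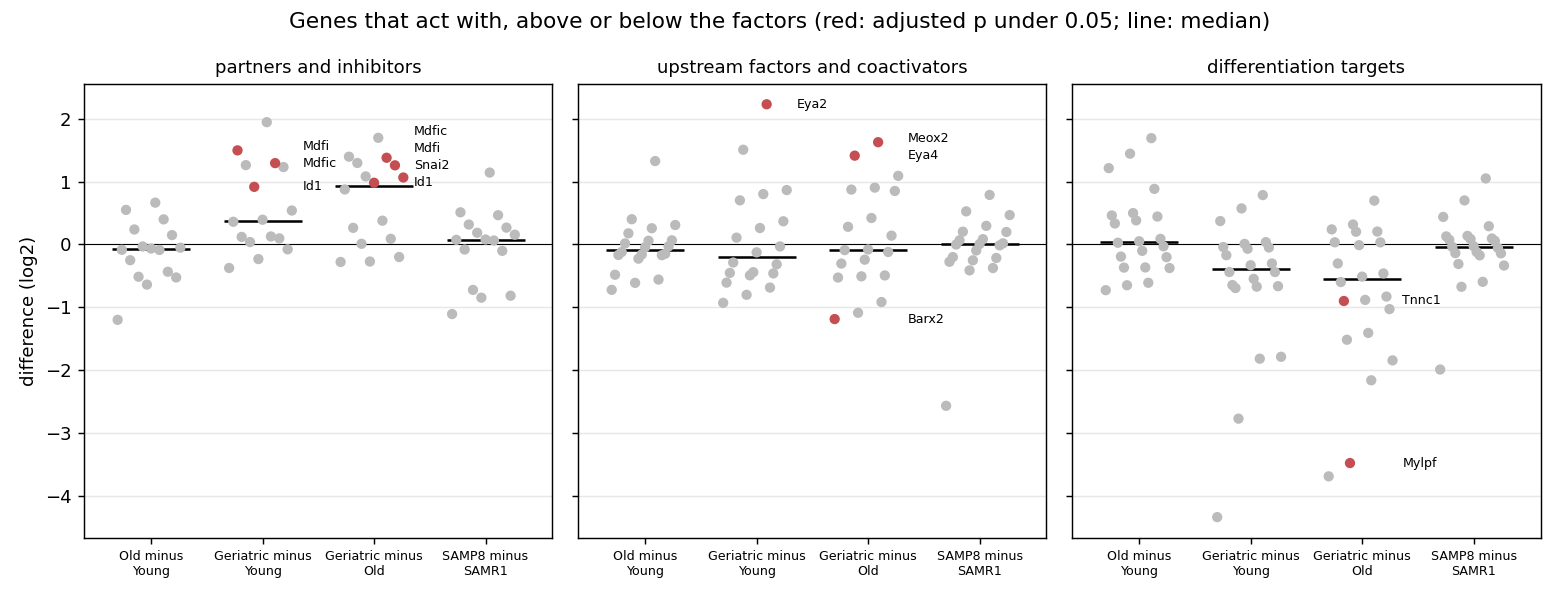
Difference (log2) of each measured gene in 3 lists (binding partners and inhibitors, upstream factors and coactivators, differentiation targets) in the 4 comparisons, with a line at the list's median. Named red points passed the test, such as Mdfi (1.50) and Eya2 (2.23) in Geriatric minus Young cells. Mylpf in Geriatric minus Old cells is another (−3.48, a bound of 2.95-fold in the values used here, and −0.57 with the authors' deposited log2 values).

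The genes with the profile most like each factor were sought among 16307 genes over the 14 arrays, by the root mean square difference of centred log2 levels. Those nearest to Pax7 were Clmn (0.17), Eif2a (0.17) and Ddx23 (0.19), against a median of 0.60 over all genes. Those nearest to Myod1 were Jsrp1 (0.17), Zmynd8 (0.18) and Oxa1l (0.19), against a median of 0.66. For Myf5 they were Zfp235 (0.33), Birc6 (0.34) and E2f4 (0.37), against 1.06, and for Myf6 B130046B21Rik (0.33), Acvr2a (0.33) and Cdh11 (0.36), against 0.90. For Myog, Fndc5 (0.56), Npm3 (0.58) and Acta2 (0.59) were nearest, against 1.15, and for Pax3 probe A_55_P2033705 Ybx1 (0.15), Stk11 (0.16) and Npm1 (0.16), against 0.57. A gene with no variation at all would differ from a factor by that factor's own SD over the arrays. This SD was 0.33 for Pax7, 0.39 for Myod1, 0.93 for Myf5, 0.74 for Myf6, 1.03 for Myog and 0.25 for this Pax3 probe. The arrays share groups and scaling, so these likenesses describe these 14 arrays.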

How the data were processed

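The deposited scanner files hold the intensity of each spot after the background correction of Agilent Feature Extraction 10.7.3.1 (protocol GE1_107_Sep09), with probe positions on mm9, per the file headers. RNA amplification is described in the labels' protocols. From the deposited intensity, log2 of the processed signal minus each array's 75th percentile was taken here, without control spots and outlier spots, and spots of a probe were averaged. A probe was kept where 0.5 of its spots or more passed the scanner's well-above-background flag in 2 or more arrays of any group. The deposited value table gives log2 values, each array with a median of 7.80; they equal normexp (offset 50) plus quantile normalization to within 0.000117, and the sources used here name no method for it. It served as an alternative. R 4.3.3 with limma 3.58.1 fitted all 14 arrays as 5 groups (lmFit, eBayes), with Benjamini-Hochberg adjustment over 49918 probes, 95% intervals and SE from the fit. The fit was tested on simulated data with 200 changed probes. The 14 arrays were assigned to 2 slides by the array identifiers in the file names, and no label states the slide. Slide 1 held Old and SAMP8 by replicate 2 alone, and slide 2 held Young and SAMR1 by replicate 2 alone. Both Geriatric arrays were on slide 2. The number of arrays limits the precision.

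For a gene outside the 6 factors the kept probe of highest mean level was read. Such a gene was named where it passed (up to 4 per list and comparison), otherwise where its p was among the 2 smallest; Myh3 was added after its values were seen. The factors, the gene lists and the tests were chosen with earlier results of these data known. Bounds ("at least") compare the bright group with, per array, the higher of the lowest signal well above background and the probe's own. They use the scaled processed signal only, and do not cover the alternatives. Alternatives were normexp, quantile normalization, the deposited values, 2 filters, slide as a block or alone, the replicate number as a block, only the groups compared, and each array left out. Figures were drawn with matplotlib 3.10.9. A pair of upstream genes is not reported here, and Geriatric replicate 2 was not analysed here.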

Additional observations from a re-analysis of the deposited data

Results flagged for a closer look

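The difference of Myod1 between Geriatric and Young cells was not that between SAMP8 and SAMR1 cells, by −1.26 ± 0.26 (log2, SE; limma interaction contrast, adjusted p = 0.0364). The call was lost in 15 of 23 other settings, including the removal of any single Young, Geriatric, SAMP8 or SAMR1 array. Neither difference passed on its own (limma, adjusted p = 0.318 and 0.0559). Myod1 was lower on 2 of 2 Geriatric arrays than on any Young array, where 42.9% of all probes did not overlap. It was higher on 3 of 3 SAMP8 arrays than on any SAMR1 array, where 13.1% of all probes did not overlap. Geriatric and Young arrays also differed in sex-linked transcripts (Ddx3y by 7.79, Xist by −12.92), while Ddx3y differed by 0.02 between SAMP8 and SAMR1. Xist lay at −3.52, −5.13 and −3.76 in SAMP8 and at −4.31, −8.15 and −7.81 in SAMR1 cells. It was well above background on every SAMP8 array and, in SAMR1, on replicate 1 only. SAMP8 and SAMR1 arrays also differed in the summed levels of Schwann cell, mesenchymal and smooth muscle and pericyte genes, the last of which went both ways gene by gene. The pairs differ in strain and age. The parts of these in the Myod1 value were not tested.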

How the results depend on the processing

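Of the 35 differences of the 7 probes, 20 kept their sign under all 23 or 24 other settings, and none of the 15 that changed sign had passed the test. In Geriatric against Old cells the count of called probes was 2 with normexp, 2 with quantile normalization, 3 with the authors' deposited log2 values, 2 with only probes above background on all arrays, 2 with the replicate block, and 0 within slide 2 or with only the groups compared. In SAMP8 against SAMR1 it was 1 with normexp, quantile normalization, the deposited values and the stricter filter. In the interaction contrast it was 0 within slide 2, with the replicate block and with only the groups compared. Leaving out 1 array gave 0 to 1 called probes for Geriatric against Young (1 without Old replicate 1), 0 to 2 for Geriatric against Old (0 without Geriatric replicate 3) and 0 to 1 for the interaction. The causes were not tested.

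Sign changes without a call were as follows. With normexp, Pax3 A_55_P2033705 had 0.0121 in Old minus Young and Pax3 A_51_P315734 −0.0053 in Geriatric minus Young. With quantile normalization, Myod1 had 0.0349 in Old minus Young, Pax7 0.11 in Geriatric minus Young and 0.0741 in the interaction, and Pax3 A_51_P315734 0.30 and Myog 0.0519 in Geriatric minus Old. With the deposited values, Old minus Young was −0.0041 for Pax3 A_51_P315734 and 0.0444 for Myod1, Geriatric minus Young 0.17 for Pax7, and Geriatric minus Old 0.18 for Pax3 A_51_P315734. With slide as a block, Pax3 A_51_P315734 had −0.32 in Geriatric minus Young and Pax7 −0.03 in SAMP8 minus SAMR1. Within slide 1, Old minus Young was 0.34 for Pax3 A_55_P2033705, 0.0187 for Myod1 and 0.44 for Myf6, and SAMP8 minus SAMR1 was −0.23 for Pax7 and −0.84 for Myog. Within slide 2, Pax3 A_51_P315734 had −0.45 in Old minus Young and −0.52 in Geriatric minus Young, and SAMP8 minus SAMR1 was 0.29 for Myf5 and −0.0336 for Myf6. Leaving out 1 array, Old minus Young ran from −0.24 to 0.0816 for Pax3 A_55_P2033705, −0.034 to 0.64 for Pax3 A_51_P315734, −0.11 to 0.0253 for Myod1, −1.25 to 0.15 for Myog and −0.33 to 0.21 for Myf6. Geriatric minus Young ran from −0.43 to 0.71 for Pax3 A_51_P315734, −0.28 to 0.0542 for Pax7 and −1.41 to 0.0178 for Myog. Geriatric minus Old ran from −0.74 to 0.41 for Pax3 A_51_P315734 and −1.004 to 0.55 for Myog, and SAMP8 minus SAMR1 from −0.0456 to 0.21 for Pax7 and −0.14 to 0.56 for Myog.

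The median Geriatric minus Old difference of all probes was −0.18, and 0.09 with quantile normalization, and the Myf5 difference stood above it under both. The share of calls that were higher was 83.5% in Old against Young cells, and 63.8% with quantile normalization and 73.2% with the deposited values. It was 38.2% in Geriatric against Young and 52.2% with the deposited values, and 29.6% in Geriatric against Old, 51.6% with quantile normalization and 46.6% with the deposited values. In SAMP8 against SAMR1 it was 49.5%, and 59.7% with normexp, and in the interaction 32.7%, and 48.8% with the deposited values. Over all probes, calls in Old against Young numbered 618, and 1375 with normexp, 1033 with the deposited values, 374 with the stricter filter, 294 with the replicate block and 51 with only the groups compared. In Geriatric against Young they numbered 1769, and 1083 with slide as a block, 1125 with the replicate block and 560 with only the groups compared. In Geriatric against Old they numbered 8980, and 13475 with normexp, 3960 with only the groups compared and 2081 within slide 2. In SAMP8 against SAMR1 they numbered 210, and 357 with normexp and 69 with only the groups compared, and in the interaction 784, and 1238 with normexp, 438 with the stricter filter and 473 with the replicate block. Within slide 1 and within slide 2 every other comparison left a group with 1 array, so its calls are not counted here. Leaving out 1 array gave 134 to 936 calls in Old against Young, 560 to 1993 in Geriatric against Young, 2668 to 9994 in Geriatric against Old, 106 to 301 in SAMP8 against SAMR1 and 348 to 1079 in the interaction.

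Replicate numbers are shared between groups, but same-numbered arrays deviated together at r = −0.23 to 0.15 only, so they were not taken as pairs. Same-numbered Old and Young arrays lie on different slides, as do same-numbered SAMP8 and SAMR1 arrays, so this check cannot exclude pairing. With the replicate block, Myf5 in Geriatric minus Old was 2.32 (adjusted p = 0.00691), Myf6 1.52 (adjusted p = 0.0393), and the Myod1 interaction −1.24 (adjusted p = 0.103).

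Each of the 14 related-gene calls kept its sign, and the Geriatric minus Old calls were lost within slide 2. Young replicate 2 was the only Young array on slide 2, so calls against Young are not read there. Without Geriatric replicate 3, adjusted p in Geriatric minus Old was 0.055 for Mdfi, 0.0947 for Mdfic, 0.188 for Snai2, 0.063 for Eya4, 0.176 for Meox2, 0.171 for Barx2, 0.247 for Tnnc1 and 0.12 for Mylpf. Without Geriatric replicate 1, adjusted p in Geriatric minus Young was 0.241 for Id1, 0.12 for Mdfi, 0.109 for Mdfic and 0.077 for Eya2. The Myf5 levels in Old cells lay close to background, with a signal 1.91 to 3.53 times the local background.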
